A study of Mus musculus with 12 samples.

Results

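Transcripts of 10 genes of DNA replication licensing and nucleotide synthesis were followed in colorectal tumours of mice that had grown in the liver. They were Mcm2, Mcm3, Mcm4, Mcm5, Mcm6, Mcm7, Pcna, Rrm1, Rrm2 and Tyms. Each was taken from the rows of the array table whose only annotated symbol was that gene, and a gene with several such rows was read from its brightest one, averaged over the 12 arrays. The 10 genes were thus 10 of 22180 named genes, and all 10 lay among the 13286 genes that were bright enough to test. A gene was tested when it was above 4.93, the median of all values on the log2 scale, on at least 3 arrays.

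Tumour RNA had been hybridised to 12 arrays, 3 for each of 4 groups. The groups were tumours in fatty liver under anti-VEGF, an antiangiogenic treatment directed at vascular endothelial growth factor, tumours in healthy liver under anti-VEGF, tumours in fatty liver under vehicle, and tumours in healthy liver under vehicle. All 4 groups were mouse colorectal cancer placed by injection in the liver, and the series' design text gives 3 mice a group. The strain, age and sex of the mice, the cancer cells injected, how the liver was made fatty, and the dose and schedule of treatment are stated in none of the sources used here. Levels are the deposited log2 values, so a difference of 1 is a 2-fold difference. A gene was called changed at a Benjamini-Hochberg adjusted p of 0.05 over all tested genes in limma, which fits a linear model per gene and steadies each gene's spread with that of the others.

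The mini-chromosome maintenance proteins encoded by Mcm2 to Mcm7 form the ring-shaped helicase that is loaded onto replication origins before S phase, a step called licensing, and that unwinds DNA at the fork once origins fire. Pcna encodes the sliding clamp that holds DNA polymerases on their template. Rrm1 and Rrm2 encode the large and the small subunit of ribonucleotide reductase, which makes deoxyribonucleotides, and Tyms encodes thymidylate synthase, which makes the thymidine nucleotide. Dividing cells, tumour cells among them, transcribe these genes mainly around the entry into S phase, in large part under E2F transcription factors that the retinoblastoma protein holds in check.

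The labelled tissue and the arrays were looked at first. Of 15 epithelial marker genes, 8 stayed below the limit of 4.93 on every array, among them Epcam, Krt20, Cdh17, Cdx1 and Vil1, which mark colon epithelium. Of 14 measured hepatocyte markers 9 did so, among them Alb, which encodes albumin. Several arrays resembled another of their group closely. Gene by gene, the differences between a pair of arrays had an SD of 0.163 for arrays 1 and 3 of the fatty liver vehicle group and 0.163 for the same numbers in the healthy liver vehicle group. For the pairs of healthy liver anti-VEGF arrays it was 0.148 to 0.156, and for all other pairs within groups 0.391 to 0.636. Xist, an RNA of the inactive X chromosome of female cells, was at 10.45 to 10.58 on vehicle arrays 1 and 3 of fatty liver, at 8.10 to 8.43 on vehicle arrays 1 and 3 of healthy liver, and at most 4.32 on the other 8 arrays. It was thus high in vehicle groups only, and the part of what this marks in the treatment comparisons was not tested. On the first principal component, which held 76.2% of the variance, anti-VEGF array 3 of fatty liver and vehicle array 2 of healthy liver lay between the fatty liver and the healthy liver arrays. The values cannot show whether nearly alike arrays came from separate mice, and p-values measure only the spread between these arrays.

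Because these genes are known E2F targets, their start regions were read for short words. RefSeq's promoter windows (build GRCm38.p6, 250 bases before to 50 after the start of the gene, 300 bases) matched 9 of the 10 genes, with 2 windows for Mcm7 and 1 for each other gene, and Mcm4 was not matched. The E2F words searched were TTTCGCGC, TTTGGCGC, TTTCCCGC and TTTGCCGC, on both strands. At least 1 of them stood in a window of 4 of the 9 genes, namely Mcm3, Mcm5, Mcm6 and Mcm7 (in 1 of its 2 windows), against 2.6% of the 27025 genes in the table and 4.4% of the 10410 tested genes it holds. The letters CCAAT, a box bound by nuclear factor Y, were in the windows of 8 of the 9 genes on either strand, the exception being Tyms, against 41.1% of all genes in the table and 41.7% of tested ones. In Mcm5 the E2F words began at -153 and -149 bases from the start site and overlapped each other, and in Mcm6 they began at -110, -106 and -47, the first pair overlapping. A match is a description of letters and shows no binding, and a window without a match says only that these letters are not in it. The windows below are those of Mcm5 and Mcm6, which hold overlapping E2F words, of Rrm2, which had the largest difference between livers, and of Pcna, which had the smallest. They lie at chr8:75109259-75109558 on the plus strand for Mcm5, chr1:128359656-128359955 on the minus strand for Mcm6, chr12:24708004-24708303 on the plus strand for Rrm2 and chr2:132253131-132253430 on the minus strand for Pcna, and each is printed 5′ to 3′ along the gene. Capitals mark the E2F words and the CCAAT boxes as read on either strand, so that a box on the opposite strand appears as ATTGG.
Mcm5: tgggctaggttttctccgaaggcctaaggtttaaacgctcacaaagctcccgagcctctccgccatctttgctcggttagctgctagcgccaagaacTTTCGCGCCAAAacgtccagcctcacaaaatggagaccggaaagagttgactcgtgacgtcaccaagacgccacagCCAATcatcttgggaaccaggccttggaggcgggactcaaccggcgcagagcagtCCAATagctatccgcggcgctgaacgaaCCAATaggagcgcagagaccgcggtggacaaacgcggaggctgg
Mcm6: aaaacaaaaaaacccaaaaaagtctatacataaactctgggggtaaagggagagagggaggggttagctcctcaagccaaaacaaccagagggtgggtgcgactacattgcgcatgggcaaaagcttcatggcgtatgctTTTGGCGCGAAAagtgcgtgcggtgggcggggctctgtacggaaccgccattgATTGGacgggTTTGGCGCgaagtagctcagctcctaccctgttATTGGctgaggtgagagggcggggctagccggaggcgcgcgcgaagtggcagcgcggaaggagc
Rrm2: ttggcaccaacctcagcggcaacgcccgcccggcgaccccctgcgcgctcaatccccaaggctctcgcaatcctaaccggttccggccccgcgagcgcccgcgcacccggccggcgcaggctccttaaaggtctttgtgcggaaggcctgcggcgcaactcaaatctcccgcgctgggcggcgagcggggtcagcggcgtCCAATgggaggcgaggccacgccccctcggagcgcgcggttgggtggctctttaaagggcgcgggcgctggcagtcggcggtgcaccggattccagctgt
Pcna: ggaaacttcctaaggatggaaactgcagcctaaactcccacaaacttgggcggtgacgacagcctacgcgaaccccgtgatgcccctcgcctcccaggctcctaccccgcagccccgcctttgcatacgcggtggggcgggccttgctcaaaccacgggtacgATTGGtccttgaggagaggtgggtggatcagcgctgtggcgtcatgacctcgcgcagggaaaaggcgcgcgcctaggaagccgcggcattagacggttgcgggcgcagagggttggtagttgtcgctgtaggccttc

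Under vehicle, tumours in fatty liver had less transcript of the helicase subunits and of the nucleotide enzymes than tumours in healthy liver, whereas Pcna differed by 0.04 on the log2 scale. In limma 8 of the 10 genes fell and 0 rose, where 30.4% of all tested genes fell. The calls were Rrm2, Tyms, Mcm7, Mcm2, Mcm4, Mcm5, Rrm1 and Mcm6. All 3 fatty liver arrays lay below all 3 healthy liver arrays in 9 of the 10 genes, where 37.2% of tested genes were so separated. The median difference of the 10 genes was -0.56, beside -0.12 over all tested genes, of which 17.5% were at or below the median of the 10. With the nearly alike arrays averaged to 1 sample each, 0 of the 10 genes passed in limma, with adjusted p-values from 0.0784 for Rrm2 to 0.924 for Pcna, where 0.956% of all tested genes then fell. The Rrm2 difference stayed at -0.85 with an SE of 0.23, against 0.15 with all arrays. Without vehicle array 2 of fatty liver 2 of the 10 genes fell, Rrm2 and Tyms, where 19.9% of all tested genes then fell. Without vehicle array 1 of healthy liver 4 genes fell, where 19.6% of all tested genes did, and without vehicle array 3 of healthy liver 5 genes fell, where 19.4% did.

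**Figure D1:**
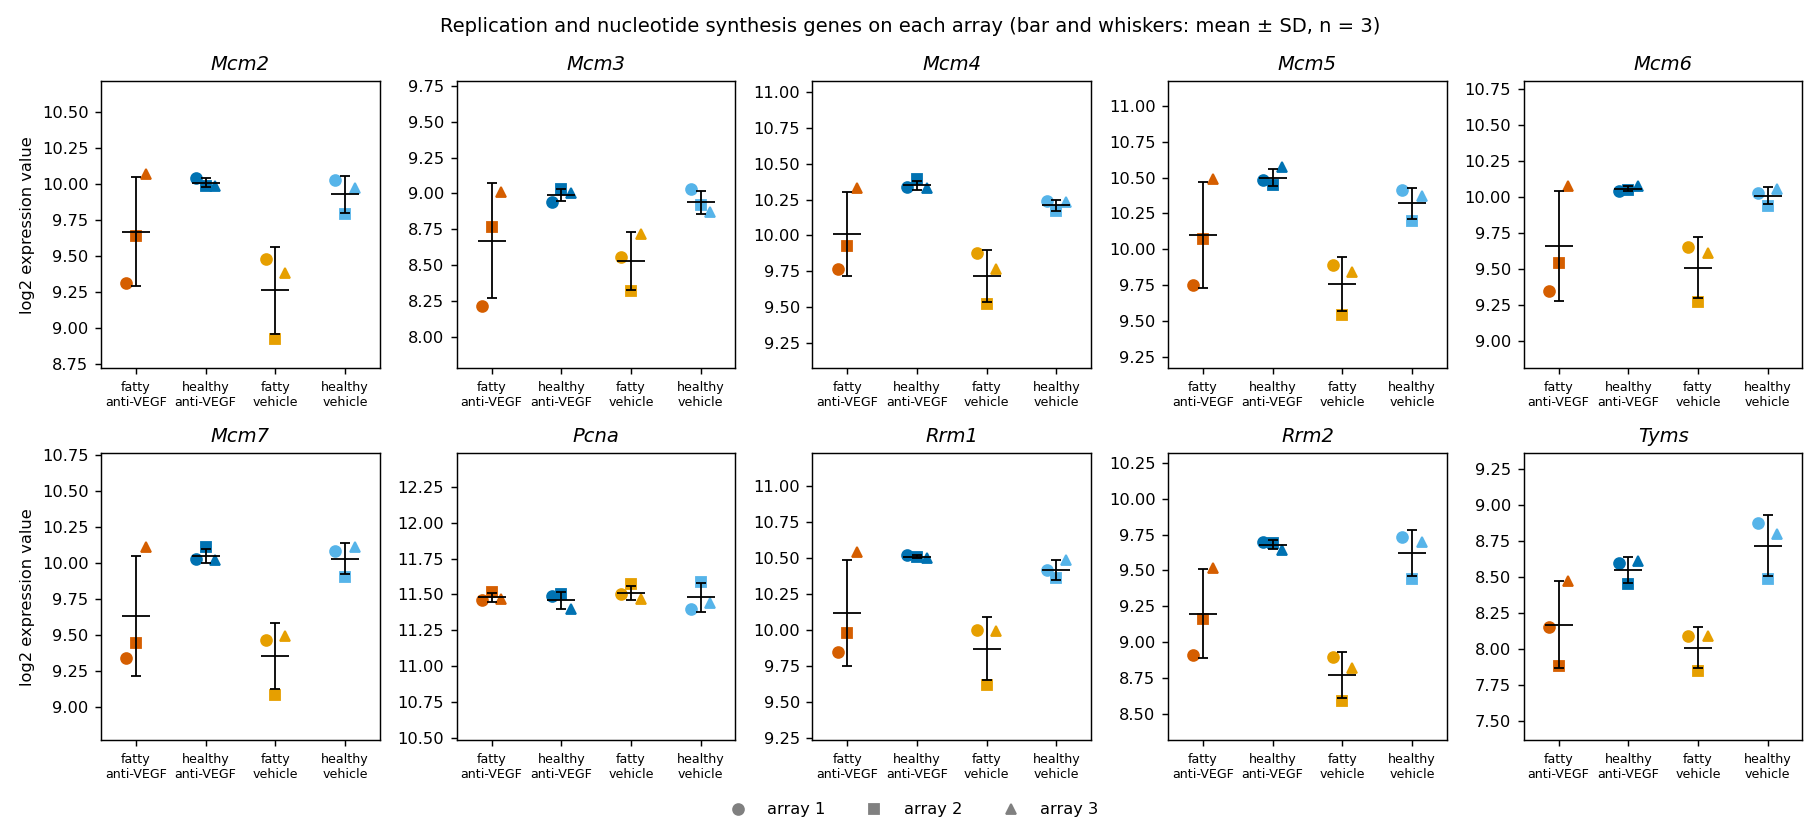
Log2 level of the 10 genes on each of the 12 arrays, 1 panel a gene and each panel spanning 2 log2 units; points are arrays by group, and the bars give mean and SD of 3 arrays. Apart from Pcna, which stayed between 11.40 and 11.59, the fatty liver vehicle arrays lie below the healthy liver vehicle arrays in every panel, and 1 of the fatty liver anti-VEGF arrays, array 3, lies near the healthy liver arrays.

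Among the helicase subunits the differences under vehicle ran from -0.69 to -0.41, with a median of -0.53. Mcm7, a subunit of the helicase core, was at 9.46, 9.08 and 9.49 in fatty liver, against 10.08, 9.90 and 10.11 in healthy liver. The groups did not overlap, and the level in fatty liver was 62.1% of that in healthy liver (log2 difference -0.69, SE 0.19, 95% interval -1.10 to -0.27, limma adjusted p = 0.0122). Mcm2, which also handles parental histones at the fork, was at 9.48, 8.92 and 9.38 in fatty liver, against 10.03, 9.79 and 9.97 in healthy liver. Array 2 was the lowest within each group, and the difference was -0.67 (SE 0.19, limma adjusted p = 0.0141).

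Mcm5, which with Mcm2 forms the gate through which the ring takes up DNA, was at 9.89, 9.54 and 9.84 in fatty liver, against 10.41, 10.20 and 10.37 in healthy liver, a difference of -0.57 (SE 0.17, limma adjusted p = 0.0176). Mcm6 was at 9.65, 9.27 and 9.61 in fatty liver, against 10.03, 9.94 and 10.06 in healthy liver, a difference of -0.50 (SE 0.17, limma adjusted p = 0.031). These are the genes whose windows hold the overlapping E2F words shown above. Mcm4, a core subunit, was at 9.88, 9.52 and 9.77 in fatty liver, against 10.24, 10.17 and 10.23 in healthy liver, a difference of -0.49 (SE 0.14, limma adjusted p = 0.0147).

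Mcm3 was the helicase subunit that did not pass. It was at 8.56, 8.32 and 8.72 in fatty liver, against 9.03, 8.92 and 8.87 in healthy liver, so the groups were apart by 0.15 between their nearest arrays. The difference was -0.41 (SE 0.17, 95% interval -0.80 to -0.02, limma adjusted p = 0.0743). In the fit of the vehicle arrays alone with the replicate number as a block, chosen after the data were seen, it passed with the same difference of -0.41 (SE 0.11, limma adjusted p = 0.0365), and 9 of the 10 genes then fell, where 33.8% of all tested genes did. The values do not show that arrays of the same number belong together.

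Pcna was at 11.50, 11.57 and 11.47 in fatty liver, against 11.40, 11.59 and 11.44 in healthy liver. The groups overlapped. The difference was 0.04 (SE 0.08), and its 95% interval of -0.13 to 0.20 leaves out the estimated difference of each of the other 9 genes. Those estimates have intervals of their own, and that of Mcm3, -0.80 to -0.02, reaches into the Pcna interval. Pcna was not tested against the other genes. Over all 12 arrays Pcna spanned 0.20, where the other 9 genes spanned 0.81 to 1.15. RefSeq lists the pseudogenes Pcna-ps1 and Pcna-ps2, and whether the row also reads their transcripts was not tested.

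Of the nucleotide enzymes, Rrm2 and Tyms had the largest differences among the 10 genes. Rrm2, the regulated small subunit of ribonucleotide reductase, was at 8.90, 8.59 and 8.82 in fatty liver, against 9.73, 9.44 and 9.70 in healthy liver. The groups were far apart relative to their spread, and the level in fatty liver was 55.5% of that in healthy liver (log2 difference -0.85, SE 0.15, 95% interval -1.18 to -0.52, limma adjusted p = 0.00157). Between arrays of the same number the Rrm2 difference was -0.83, -0.85 and -0.87, so the lower value of array 2 in both livers cancelled.

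Tyms was at 8.09, 7.85 and 8.09 in fatty liver, against 8.88, 8.49 and 8.80 in healthy liver, again without overlap. The level in fatty liver was 60.8% of that in healthy liver (log2 difference -0.72, SE 0.15, limma adjusted p = 0.00412). RefSeq lists a pseudogene, Tyms-ps, and cross-hybridisation was not tested. Rrm1, the large subunit that carries the catalytic site, was at 10 (to 2 decimals), 9.62 and 9.99 in fatty liver, against 10.42, 10.36 and 10.49 in healthy liver, a difference of -0.55 (SE 0.17, limma adjusted p = 0.0192).

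Markers of other cells differed between livers too. Under vehicle 49.6% of all tested genes were called in either direction, and 30.4% fell. The marker counts are to be read beside these shares. Of 17 tested macrophage markers 16 rose and 0 fell in fatty liver under vehicle, and the mean of the list was 11.48 to 11.58 in fatty liver, against 9.38 to 10.41 in healthy liver. All 16 tested T and NK cell markers rose, with list means of 8.14 to 8.76 in fatty liver, against 5.19 to 5.85 in healthy liver. Of 7 tested neutrophil markers 3 rose, with list means of 7.84 to 8.64 in fatty liver, against 5.39 to 6.13 in healthy liver. Of 12 fibroblast markers 5 fell, with list means of 7.74 to 8.83 in fatty liver, against 8.16 to 10.27 in healthy liver. Of 12 endothelial markers 1 rose and 1 fell, with list means of 6.32 to 7.84 in fatty liver and 5.84 to 9.07 in healthy liver, the highest value of each liver being array 2. Of 7 tested epithelial markers 1 rose and 3 fell, with list means of 6.34 to 6.70 in fatty liver and 6.47 to 6.51 in healthy liver. Of 5 tested hepatocyte markers 1 rose, with list means of 5.47 to 5.60 in fatty liver and 5.37 to 5.51 in healthy liver. With the nearly alike arrays averaged, 6 macrophage, 2 T and NK cell and 1 neutrophil markers rose under vehicle. In that comparison 5.43% of all tested genes were called in either direction. Without vehicle array 2 of fatty liver 2 neutrophil markers rose, and without anti-VEGF array 3 of fatty liver, which enters only the shared spread here, 6 did. Over the 12 arrays left out 1 at a time, 35.3% to 55.2% of all tested genes were called in either direction under vehicle. Fap among the fibroblast markers, Cd163 among the macrophage markers and Camp among the neutrophil markers were below the limit on every array. The part of these markers in the fall of the replication genes was not tested, and in whole tissue fewer dividing cells and less transcript per cell cannot be told apart.

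Markers named for their brightness give examples under vehicle. The median difference was 1.92 in the macrophage list and 2.94 in the T and NK cell list. Cd68, a macrophage lysosomal protein, rose by 1.22 (SE 0.17, limma adjusted p = 0.000458). Nkg7, a granule protein of cytotoxic lymphocytes, rose by 3.73 (SE 0.69, limma adjusted p = 0.00206). Gzmb, a granzyme, rose by 2.81 (SE 1.01, limma adjusted p = 0.0392), with healthy liver vehicle array 2 at 9.85. Epithelial markers moved both ways. Krt8 and Krt18, keratins of simple epithelia, fell by 0.84 (SE 0.17, limma adjusted p = 0.00346) and by 0.88 (SE 0.23, limma adjusted p = 0.0105), while Cdh1, which encodes E-cadherin and is named here after its values were seen, rose by 2.37 (SE 0.48, limma adjusted p = 0.00312).

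**Figure D2:**
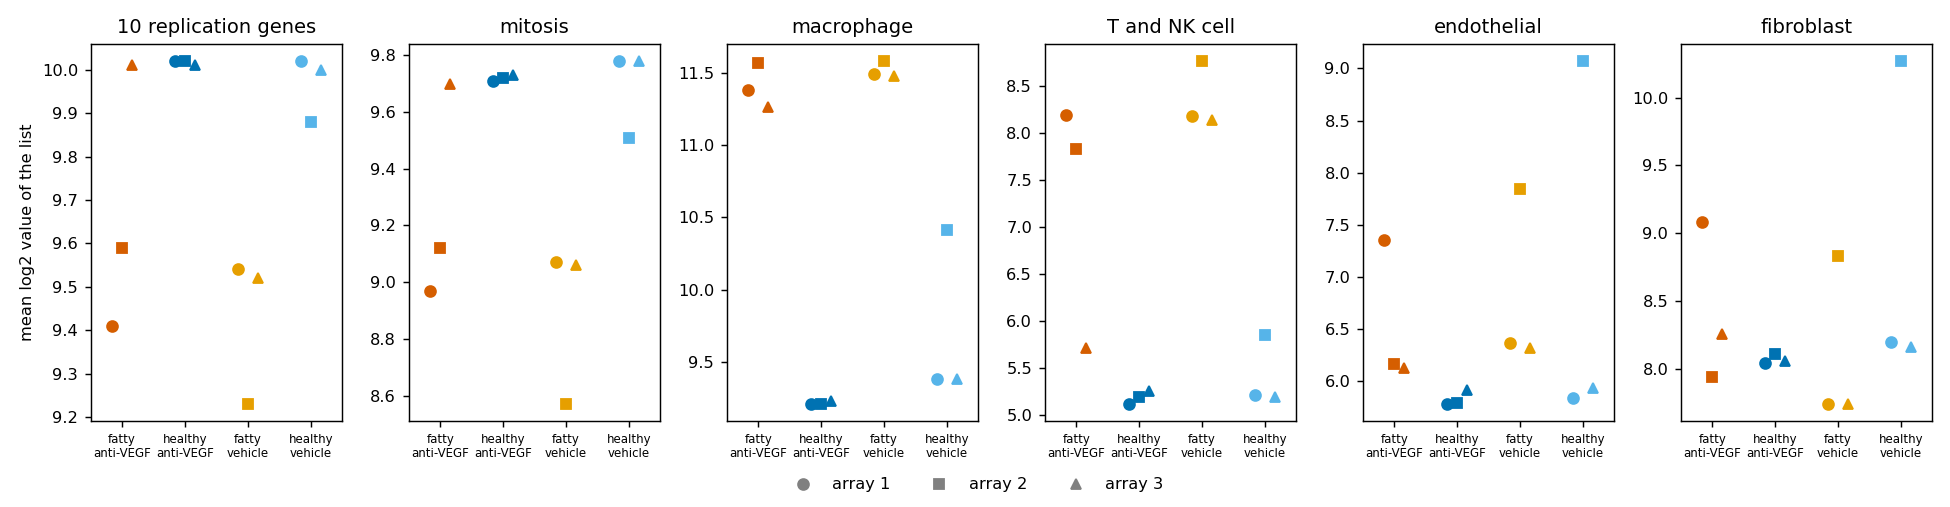
Mean log2 level of 6 gene lists on each of the 12 arrays, by group, with a separate vertical scale in each panel. The 10 replication genes and the mitosis genes are lower on the fatty liver vehicle arrays, where the macrophage and the T and NK cell markers are higher, and anti-VEGF array 3 of fatty liver stands at 10.01 for the replication genes and at 5.72 for the T and NK cell markers.

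Under anti-VEGF the same 9 genes were lower on average in fatty liver, and most did not pass. In limma 1 of the 10 genes fell, Rrm2, and 0 rose, where 27.6% of all tested genes fell. The arrays were separated without overlap in Rrm2 alone, 1 of 10, where 36.6% of tested genes were so separated. The median difference of the 10 genes was -0.38, beside -0.13 over all tested genes, of which 25.5% were at or below the median of the 10. Averaging the nearly alike arrays leaves healthy liver under anti-VEGF with 1 sample, which is then assumed to vary like the other groups. With it 0 of the 10 genes fell, where 0.173% of all tested genes did, and the Rrm2 difference stayed at -0.48 with an SE of 0.27. Leaving out array 1 or 2 of fatty liver, or any 1 array of healthy liver in this comparison, also left 0 genes past the threshold. Over the 12 arrays left out 1 at a time, 32.2% to 56.3% of all tested genes were still called in either direction.

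**Figure D3:**
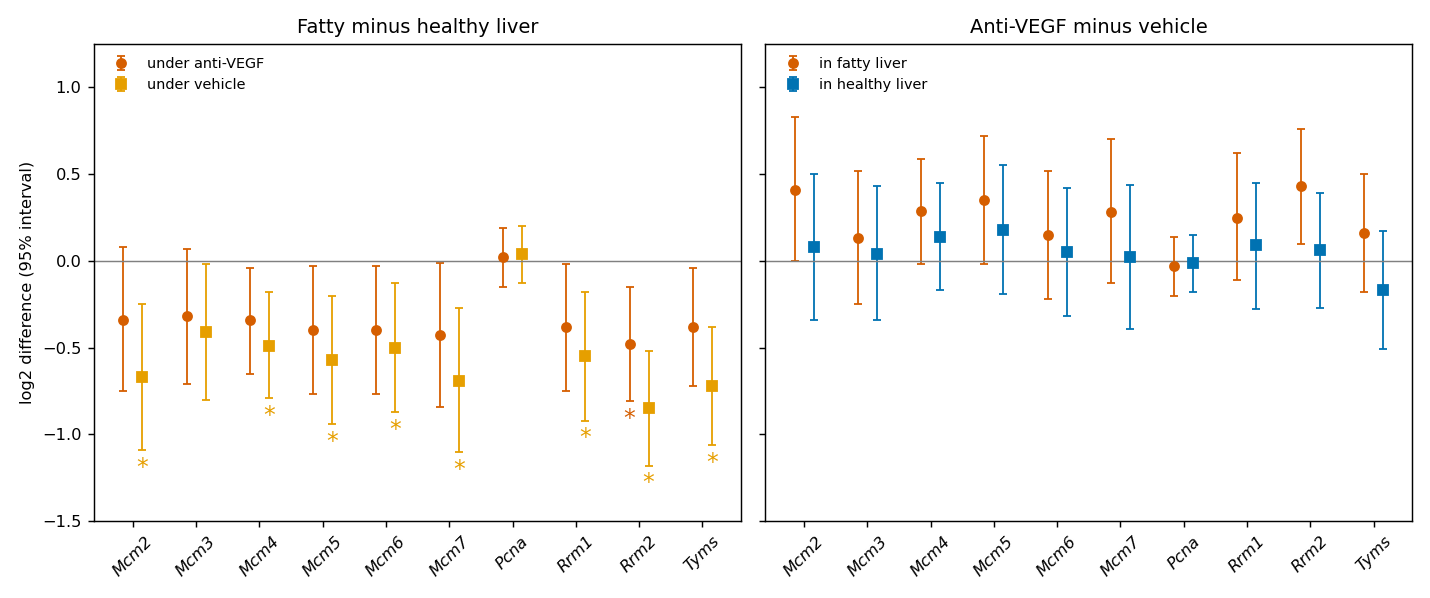
Log2 differences of the 10 genes with 95% intervals, on the left fatty minus healthy liver under each treatment and on the right anti-VEGF minus vehicle in each liver; an asterisk marks a limma adjusted p under 0.05. Under vehicle 8 genes carry an asterisk and under anti-VEGF only Rrm2 does, and the treatment differences carry none.

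The spread among the fatty liver anti-VEGF arrays was wide, and array 3 carried it. The mean of the 10 genes was 9.41, 9.59 and 10.01 on arrays 1 to 3 of fatty liver, against 10.02, 10.02 and 10.01 in healthy liver under anti-VEGF. Array 3 was the highest of its group in 9 of the 10 genes and stood at or above the lowest healthy liver anti-VEGF array in 9. Arrays 1 and 2 lay below all healthy liver arrays of both treatments in 9 genes each. On array 3 the T and NK cell list mean was 5.72 and the neutrophil list mean 6.10, against 7.83 to 8.19 and 7.50 to 9.86 on arrays 1 and 2 of the same group, while its macrophage list mean of 11.26 was close to 11.38 and 11.57. The part of these markers in the higher values of array 3 was not tested.

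Rrm2 was at 8.91, 9.16 and 9.52 in fatty liver under anti-VEGF, against 9.70, 9.69 and 9.64 in healthy liver under anti-VEGF. Even array 3 lay below all 3 healthy liver arrays, and the level was 71.7% of that in healthy liver (log2 difference -0.48, SE 0.15, 95% interval -0.81 to -0.15, limma adjusted p = 0.0241). Tyms was at 8.15, 7.88 and 8.47 in fatty liver, against 8.60, 8.45 and 8.61 in healthy liver, so array 3 just reached the lowest healthy liver array. The difference was -0.38 (SE 0.15, 95% interval -0.72 to -0.04, limma adjusted p = 0.0625). Rrm1 was at 9.85, 9.98 and 10.54 in fatty liver, against 10.52, 10.51 and 10.50 in healthy liver, a difference of -0.38 (SE 0.17, limma adjusted p = 0.0805). Its array 3 was the highest of all 6.

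The helicase subunits differed by -0.43 to -0.32 under anti-VEGF, with a median of -0.37. Mcm7 was at 9.34, 9.44 and 10.11 in fatty liver, against 10.03, 10.11 and 10.02 in healthy liver, a difference of -0.43 (SE 0.19, limma adjusted p = 0.0827). Mcm4 was at 9.77, 9.93 and 10.33 in fatty liver, against 10.34, 10.39 and 10.33 in healthy liver, a difference of -0.34 (SE 0.14, limma adjusted p = 0.0643). In both genes arrays 1 and 2 were low and array 3 was level with healthy liver. Mcm2 was at 9.31, 9.64 and 10.07 in fatty liver, against 10.04, 9.99 and 9.99 in healthy liver, a difference of -0.34 (SE 0.19, 95% interval -0.75 to 0.08, limma adjusted p = 0.166). Mcm3, Mcm5 and Mcm6 had the same order of arrays within fatty liver, with array 1 lowest and array 3 highest, at 8.22 to 9.01, 9.75 to 10.49 and 9.35 to 10.08. Their healthy liver arrays stood at 8.94 to 9.03 for Mcm3, 10.45 to 10.57 for Mcm5 and 10.04 to 10.08 for Mcm6. Pcna was at 11.46, 11.52 and 11.47 in fatty liver, against 11.49, 11.50 and 11.40 in healthy liver, a difference of 0.02 (SE 0.08, 95% interval -0.15 to 0.19).

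Without array 3 of fatty liver, 9 of the 10 genes fell in limma under anti-VEGF, where 36.3% of all tested genes then fell. The exception was Pcna, at 0.02 (limma adjusted p = 0.828). Mcm7 then differed by -0.67 (limma adjusted p = 0.00213), Rrm2 by -0.64 (limma adjusted p = 0.00227), Mcm6 by -0.61 (limma adjusted p = 0.00208) and Mcm3 by -0.49 (limma adjusted p = 0.0258). With limma's array weights, which count an array less where it departs from its group, 9 genes also fell, where 46.8% of all tested genes fell. The same weights called 13.9% and 12.5% of all tested genes for treatment in fatty and in healthy liver. In the main fit these shares were 0.00753% and 0%. Array 3 stood high in these same genes, so leaving it out lowers the fatty liver means by construction. Neither setting is independent support for a fall.

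**Figure D4:**
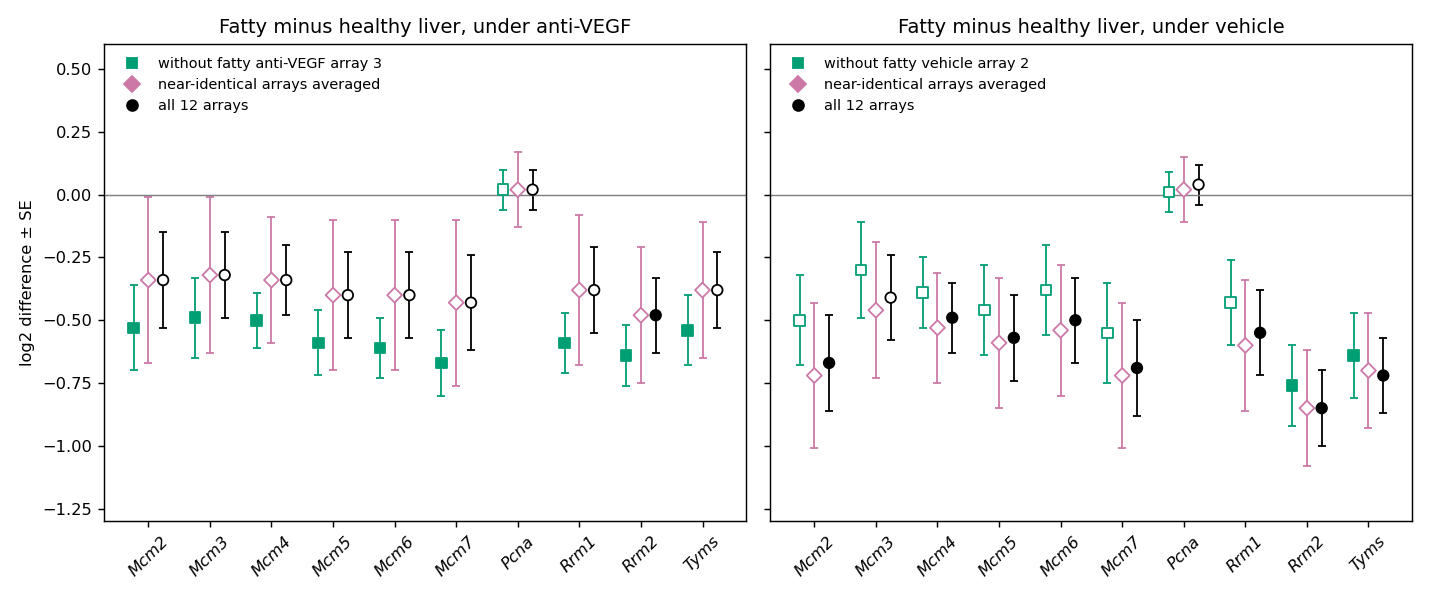
Log2 difference between fatty and healthy liver of each of the 10 genes with its SE, under anti-VEGF and under vehicle, with all 12 arrays, with the nearly alike arrays averaged and with 1 array left out; filled points have a limma adjusted p under 0.05. Leaving out anti-VEGF array 3 of fatty liver takes 9 genes past the threshold, and leaving out vehicle array 2 of fatty liver keeps 2.

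Under anti-VEGF 45.8% of all tested genes were called in either direction between livers, and 27.6% fell. Macrophage markers rose in 16 of 17 here too, with list means of 11.26 to 11.57 in fatty liver, against 9.21 to 9.23 in healthy liver. T and NK cell markers rose in 13 of 16, with list means of 5.72 to 8.19 in fatty liver, against 5.12 to 5.26 in healthy liver. Neutrophil markers rose in 3 of 7, with list means of 6.10 to 9.86 in fatty liver, against 5.17 to 5.26 in healthy liver. Fibroblast markers fell in 5 of 12 while the list's median difference was 0.40, and endothelial markers rose in 2 of 12. Epithelial markers rose in 1 and fell in 3 of 7, and hepatocyte markers fell in 2 of 5. Over the arrays left out 1 at a time, 32.2% to 56.3% of all tested genes were called in either direction. Without anti-VEGF array 3 of fatty liver all 7 neutrophil and all 16 T and NK cell markers rose. Cd3d, Ncr1, Gzma, S100a8, S100a9 and Retnlg are among these, and they passed the filter through fatty liver arrays only. With the nearly alike arrays averaged, healthy liver under anti-VEGF is left with 1 sample, so marker counts of that setting are not given here. The part of these markers in the values of the replication genes was not tested.

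Anti-VEGF against vehicle gave no call among the 10 genes in either liver. In fatty liver 0 of the 10 genes passed in limma, where 0.00753% of all tested genes did, a single gene. At an unadjusted p of 0.05, 1 of the 10 genes and 5.86% of all tested genes passed. The median difference of the 10 genes was 0.27, beside 0.01 over all tested genes. Of the 10 genes 9 were above 0, where 52.8% of all tested genes were. The fatty liver vehicle arrays also serve the comparison between livers, so the values of both comparisons share them.

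Rrm2 was at 8.91, 9.16 and 9.52 in fatty liver under anti-VEGF, against 8.90, 8.59 and 8.82 under vehicle. It was the only 1 of the 10 genes whose arrays did not overlap, by 0.01 between the nearest arrays, where 3.07% of tested genes were higher without overlap. The difference was 0.43 (SE 0.15, 95% interval 0.10 to 0.76, limma adjusted p = 0.795). Mcm2 differed by 0.41 (SE 0.19, limma adjusted p = 0.795) and Mcm5 by 0.35 (SE 0.17, limma adjusted p = 0.795), and in both genes the anti-VEGF arrays overlapped the vehicle arrays. Pcna differed by -0.03 (SE 0.08, 95% interval -0.20 to 0.14). Without anti-VEGF array 3 the differences shrank to 0.26 for Rrm2, 0.22 for Mcm2 and 0.16 for Mcm5, those of Mcm7, Rrm1 and Tyms came to 0.04, 0.04 and 0.01, and those of Mcm3 and Mcm6 changed sign to -0.04 and -0.07.

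In healthy liver 0 of the 10 genes passed in limma, where 0% of all tested genes did, and at an unadjusted p of 0.05 the counts were 0 of the 10 genes and 8.41% of all tested genes. The differences ran from -0.17 for Tyms to 0.18 for Mcm5, with a median of 0.05, beside 0.01 over all tested genes. Mcm5 was at 10.48, 10.45 and 10.57 under anti-VEGF, against 10.41, 10.20 and 10.37 under vehicle (SE 0.17, 95% interval -0.19 to 0.55). Its arrays did not overlap, and neither did those of Mcm4 and Rrm1, 3 of 10 genes, where 13.1% of tested genes were higher without overlap. Tyms was at 8.60, 8.45 and 8.61 under anti-VEGF, against 8.88, 8.49 and 8.80 under vehicle, which overlapped (SE 0.15, 95% interval -0.51 to 0.17). The interval of Mcm4, -0.17 to 0.45, likewise spanned 0.

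Whether the liver difference itself changed with treatment was tested by the interaction. In limma 0 of the 10 genes passed, where 0% of all tested genes did, and at an unadjusted p of 0.05 the counts were 0 of the 10 genes and 5.1% of all tested genes. The interaction, the fatty minus healthy difference under anti-VEGF minus that under vehicle, ran from -0.02 for Pcna to 0.37 for Rrm2 (SE 0.21, 95% interval -0.10 to 0.84, limma adjusted p = 0.979). Mcm2 stood at 0.34 and Tyms at 0.33, and the median of the 10 genes was 0.17, beside 0.02 over all tested genes. The counts of 8 genes called under vehicle and 1 under anti-VEGF are therefore not shown to differ.

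The rest of the replication pathway was read from 5 lists that do not hold the 10 genes. In the list of origin licensing and firing 15 of 24 tested genes fell and 2 rose in fatty liver under vehicle, and 9 fell and 2 rose under anti-VEGF, with median differences of -0.36 under anti-VEGF and -0.50 under vehicle. Orc6, a subunit of the origin recognition complex, fell by 0.71 under vehicle (SE 0.11, limma adjusted p = 0.00104) and by 0.65 under anti-VEGF (SE 0.11, limma adjusted p = 0.00156). Orc5, of the same complex, and Gins4, of the complex that activates the helicase, also fell under both treatments, by 0.37 and 0.29 under vehicle. The 2 that rose under both treatments were Mcmbp, which binds Mcm subunits, by 0.43 under vehicle (SE 0.08, limma adjusted p = 0.00195), and Donson, a factor of helicase assembly at origins, by 0.82 (SE 0.16, limma adjusted p = 0.00285).

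Of 30 tested genes of the fork and polymerase machinery 20 fell and 2 rose under vehicle, and 8 fell and 1 rose under anti-VEGF, with median differences of -0.29 under anti-VEGF and -0.53 under vehicle. Pole2 and Pole3, subunits of the leading-strand polymerase epsilon, fell by 0.77 and 0.65 under vehicle (SE 0.13 each, limma adjusted p = 0.00118 and 0.00338). Rpa3, of the single-strand binding complex, fell by 0.81 (SE 0.13, limma adjusted p = 0.000892), and Tipin, of the fork protection complex, by 0.74 (SE 0.17, limma adjusted p = 0.00576). Atad5, which unloads the clamp that Pcna encodes, fell by 0.86 under vehicle (SE 0.16, limma adjusted p = 0.00234) and differed by -0.26 under anti-VEGF (SE 0.16, limma adjusted p = 0.212).

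Most genes of nucleotide synthesis fell under both treatments. Of 25 tested genes 21 fell and 2 rose under vehicle, and 18 fell and 2 rose under anti-VEGF, with median differences of -0.52 under anti-VEGF and -0.67 under vehicle. Umps, of pyrimidine synthesis, fell by 0.87 under vehicle (SE 0.16, limma adjusted p = 0.00219), and Shmt2 and Mthfd1, of the folate cycle, fell by 0.81 and 0.80 (limma adjusted p = 0.00119 and 0.00341). The 2 that rose were Dck, the kinase that salvages deoxycytidine, and Samhd1, which breaks down deoxyribonucleotides. Dck was at 9.53, 9.43 and 9.07 in fatty liver, against 8.24, 8.19 and 8.22 in healthy liver under anti-VEGF, and at 9.49, 9.97 and 9.61 in fatty liver, against 8.39, 8.53 and 8.20 in healthy liver under vehicle. All fatty liver arrays of Dck lay above all healthy liver arrays, and it rose by 1.12 under anti-VEGF (SE 0.15, limma adjusted p = 0.00032) and by 1.32 under vehicle (SE 0.15, limma adjusted p = 0.000203). Samhd1 rose by 1.01 under anti-VEGF (limma adjusted p = 0.000171) and by 0.84 under vehicle (limma adjusted p = 0.0006).

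Of 27 tested E2F and G1/S regulators 15 fell and 4 rose under vehicle, and 11 fell and 3 rose under anti-VEGF, with median differences of -0.30 under anti-VEGF and -0.45 under vehicle. E2f7, an atypical repressor that is itself an E2F target, fell by 1.03 under vehicle (SE 0.18, limma adjusted p = 0.00153), E2f5 by 0.81 (SE 0.10, limma adjusted p = 0.000345) and E2f3, an activator, by 0.55 (SE 0.08, limma adjusted p = 0.00083). The activators E2f1 and E2f2, named after their values were seen, were not called lower. E2f1 differed by -0.10 under vehicle (SE 0.14, limma adjusted p = 0.593) and by -0.13 under anti-VEGF (limma adjusted p = 0.482). E2f2 differed by 0.26 under vehicle (SE 0.10, limma adjusted p = 0.0552) and rose by 0.34 under anti-VEGF (SE 0.10, limma adjusted p = 0.0225). Rb1, which encodes the retinoblastoma protein, was at 10.41, 10.69 and 10.51 in fatty liver, against 9.37, 9.36 and 9.32 in healthy liver under anti-VEGF, and at 10.45, 10.85 and 10.58 in fatty liver, against 9.52, 9.60 and 9.45 in healthy liver under vehicle. Its fatty liver arrays, array 3 under anti-VEGF included, all lay above the healthy liver arrays. Rb1 rose by 1.19 under anti-VEGF (SE 0.11, limma adjusted p = 4.39e-05) and by 1.10 under vehicle (SE 0.11, limma adjusted p = 0.000143), and Ccnd3, a D-type cyclin, by 0.69 under anti-VEGF (limma adjusted p = 0.0014) and by 0.65 under vehicle (limma adjusted p = 0.00195).

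Mitosis genes, which are transcribed after S phase, fell in 17 of 19 under vehicle and in 5 of 19 under anti-VEGF, with none called higher. The median differences were -0.52 under anti-VEGF and -0.77 under vehicle. Birc5 and Mki67, named after their values were seen, did not pass under vehicle. Mki67 differed by -0.39 under vehicle (SE 0.17, limma adjusted p = 0.0776) and by 0.12 under anti-VEGF (SE 0.17, limma adjusted p = 0.598). Cdc20, an activator of the anaphase-promoting complex, fell by 1.02 under vehicle (SE 0.20, limma adjusted p = 0.00256), and Cenpf, a kinetochore protein, by 1.00 (SE 0.21, limma adjusted p = 0.00403). The mitosis list mean was 8.97, 9.12 and 9.70 on the fatty liver anti-VEGF arrays, against 9.71 to 9.73 in healthy liver, so array 3 was high there as well. The counts of all 5 lists are to be read beside the 30.4% of all tested genes that fell under vehicle and the 27.6% under anti-VEGF, and their medians beside -0.12 and -0.13. No gene of the 5 lists passed for anti-VEGF against vehicle in either liver or for the interaction.

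Single arrays and the nearly alike arrays changed these counts too. Without anti-VEGF array 3 of fatty liver the falls under anti-VEGF were 21 in origin licensing and firing, 21 in fork and polymerase machinery, 20 in nucleotide synthesis, 17 in E2F and G1/S regulators and 17 in mitosis. Of all tested genes 36.3% then fell. Without vehicle array 2 of fatty liver the falls under vehicle were 7 of 24, 9 of 30, 15 of 25, 11 of 27 and 14 of 19 in the same order of lists, where 19.9% of all tested genes fell. With the nearly alike arrays averaged, 1 E2F and G1/S gene fell under vehicle and none in the other lists, where 0.956% of all tested genes fell. In the same comparison 1 E2F and G1/S gene and 1 nucleotide synthesis gene rose.

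**Figure D5:**
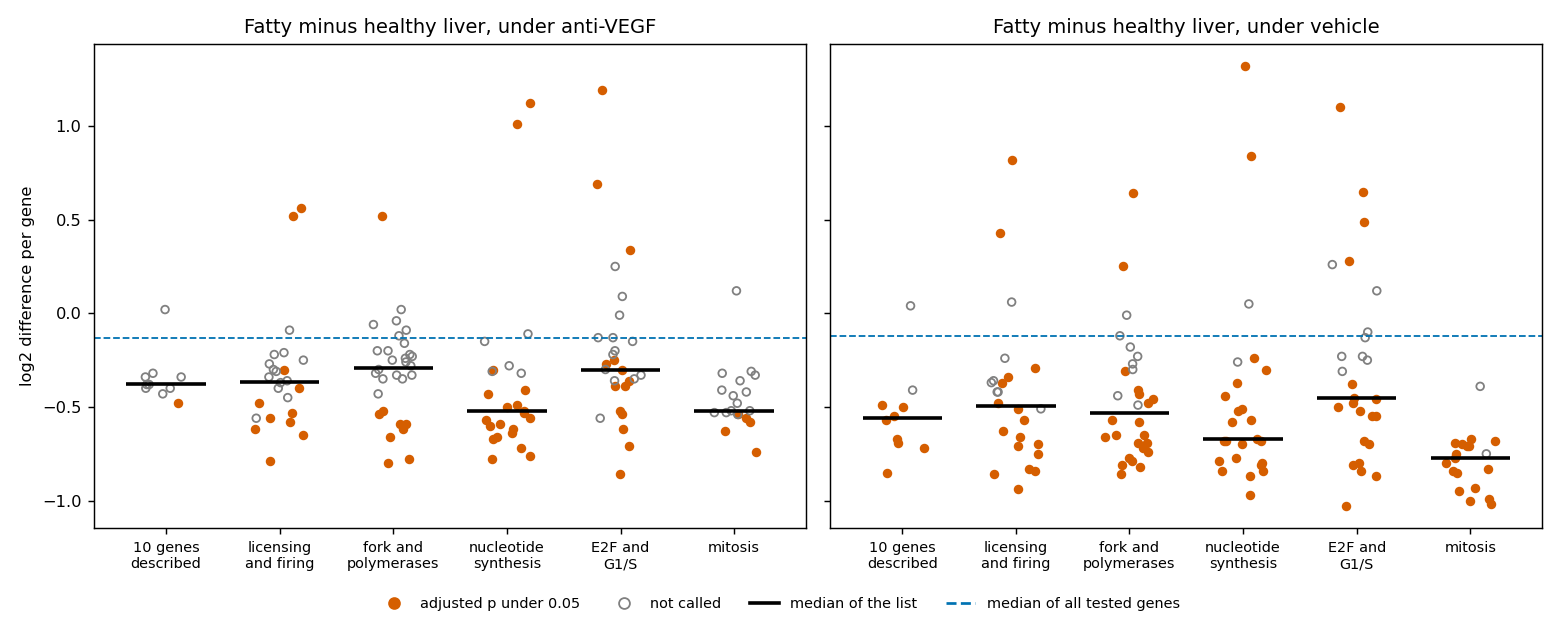
Log2 differences between fatty and healthy liver, under anti-VEGF and under vehicle, of each tested gene of the 10-gene set and of 5 further lists, with the list's median and, dashed, the median of all tested genes. All 6 list medians lie below the dashed lines at -0.13 under anti-VEGF and -0.12 under vehicle. A few genes in each of the licensing, fork, nucleotide and regulator lists lie above 0, as do Pcna and, under anti-VEGF, Mki67 of the mitosis list.

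The genes most like the 10 in pattern were found by the root mean square distance between their centred log2 values and the mean centred profile of the 10 genes over the 12 arrays. The profile itself has an amplitude of 0.28, which is the distance a flat gene would have, and the median distance of all tested genes was 0.288. The 6 nearest genes outside the set were Ccnd1, which encodes cyclin D1, at 0.0345, Ube2c, a conjugating enzyme of the anaphase-promoting complex, at 0.0387, Khsrp, an RNA-binding protein, at 0.04, Prep, a peptidase, at 0.0409, Pkp4, a plakophilin, at 0.0428, and Dusp7, a phosphatase of MAP kinases, at 0.043. Within the set, which made the profile, Rrm1 was at 0.0448, Mcm4 at 0.0477 and Mcm6 at 0.0505, while Rrm2 and Tyms were at 0.135 and 0.15 and Pcna at 0.308. Mcm5, Mcm7, Mcm2 and Mcm3 lay between, at 0.0784, 0.0867, 0.0962 and 0.108. Of all tested genes 0.813% were closer to the profile than Mcm5, 4.09% than Mcm3, 9.48% than Rrm2, 13% than Tyms and 54.7% than Pcna. The pattern is thus shared by many genes outside the set. Ccnd1 differed by -0.35 between livers under anti-VEGF and by -0.55 under vehicle, and Ube2c by -0.35 and -0.57.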

How the data were processed

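RNA of 12 tumour samples was hybridised to whole-transcript arrays of 1 colour. The authors deposited log2 expression values, 1 column per array, and these were used unchanged. Affymetrix Expression Console was used per the submitters' processing notes; version, summarisation, normalization and genome build are stated in none of the sources used here. That the scale is log2 was judged from the span of the values, column medians were 4.88 to 4.99, and whether values were centred is unknown.

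Symbols came from the platform annotation, with 1 symbol for 23521 of 41345 rows, several for 1814 and none for 16010; rows with several or none were left out. For Mcm7 and Tyms this left out rows shared with other genes, and for Rrm2 a second, dimmer row was not used. One model of all 12 arrays was fitted in limma 3.58.1 under R 4.3.3 (lmFit and eBayes, a mean per group, 8 residual and 2.40 prior degrees of freedom), with Benjamini-Hochberg adjustment over 13286 genes and a threshold of 0.05. SEs are moderated, and 95% intervals come from the same fit. The fit was also run on simulated data in which every array varied independently, so that run cannot show how nearly alike arrays affect the calls.

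The 10 genes and all lists were chosen with earlier results of these data known. From each S-phase or mitosis list the text could name up to 4 genes by smallest p under vehicle and up to 2 more under anti-VEGF, from each marker list the 2 brightest, and the 6 genes nearest the 10-gene profile, with Xist. The labels number the replicates alike in each group. Same-numbered arrays deviated together from their group means, with a correlation over 0.1 for each of the 3 numbers, only in the fatty and healthy liver vehicle groups (0.536, 0.701 and 0.549). In both groups arrays 1 and 3 were nearly alike and array 2 stood apart, which can give such correlations without a pairing by number. Arrays of unlike number were not compared in this way, so the values do not show such a pairing. Alternatives were the filter, normalization, row choice, samples in the fit, replicate block, averaging of nearly alike arrays, prior trend, array weights and each array left out. Precision is limited by the number of arrays and by signal over background, for which no scanner values entered.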

Additional observations from a re-analysis of the deposited data

How the results depend on the processing

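Under vehicle, the count of 8 called genes in fatty against healthy liver stayed within 1.5 times under every setting except averaging the nearly alike arrays, which gave 0, and some arrays left out, over which it ranged from 2 to 9. Under anti-VEGF, the count of 1 became 9 with array weights, 2 with the replicate block, and 0 with arrays centred on their medians, with the mean of a gene's rows, with the nearly alike arrays averaged and with only the groups compared; leaving out 1 array gave 0 to 9. Averaging leaves 8 samples, so fewer enter the fit; the cause of the other changes was not tested. With array weights 1 gene passed for anti-VEGF against vehicle in fatty liver (Rrm2), 1 in healthy liver (Tyms) and 1 for the interaction (Rrm2); every other setting gave 0. The replicate block over all 12 arrays gave 8 genes under vehicle, and the block within the vehicle arrays changed no call but that of Mcm3. Under anti-VEGF same-numbered arrays of the 2 livers did not deviate together, and the block added Tyms.

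Over all tested genes, 49.6% were called between livers under vehicle and 45.8% under anti-VEGF, against 28% and 25.7% with no filter, 5.43% and 3.84% with the nearly alike arrays averaged, and 71.1% and 74.4% with array weights. Array weights also called 13.9% and 12.5% for treatment in fatty and in healthy liver and 11.1% for the interaction, so 1 of 10 genes is near the share of all genes in each.

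Changes of sign were found only among small differences that passed in none of the main tests. With array weights, anti-VEGF against vehicle in fatty liver became -0.06 for Mcm6, -0.01 for Mcm7, 0.03 for Pcna and -0.16 for Tyms, in healthy liver -0.03 for Mcm7, 0.05 for Pcna and -0.02 for Rrm2, and the interaction -0.08 for Mcm6 and -0.05 for Rrm1. Quantile normalization gave 0.00 for Mcm7 in healthy liver and an interaction of 0.02 for Pcna, and the mean of a gene's rows -0.02 for Rrm2 in healthy liver. Over the arrays left out, the treatment difference in fatty liver ranged from -0.04 to 0.35 for Mcm3 and from -0.07 to 0.30 for Mcm6. In healthy liver it ranged from -0.04 to 0.06 for Mcm7, from -0.05 to 0.05 for Pcna and from -0.03 to 0.11 for Rrm2. The interaction ranged from -0.08 to 0.31 for Mcm3, -0.02 to 0.27 for Mcm4, -0.02 to 0.35 for Mcm5, -0.11 to 0.25 for Mcm6, -0.04 to 0.30 for Rrm1 and -0.07 to 0.02 for Pcna. The Pcna difference between livers ranged from -0.01 to 0.04 under anti-VEGF and from 0.00 to 0.09 under vehicle.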
